A study of Sus scrofa with 12 samples.

Results

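The proteins described here build the mitochondrial ribosome and carry other proteins into the mitochondrion. They were found by gene symbol, as probe sets whose platform annotation gave exactly 1 symbol beginning with MRPL (large ribosomal subunit), MRPS (small ribosomal subunit), TIMM (import through the inner membrane) or TOMM (import through the outer membrane). This gave 76 genes of 6765 with a name, which were 36 MRPL, 22 MRPS, 11 TIMM and 7 TOMM genes. Of their 99 probe sets, each gene was represented by the one whose mean over the 12 arrays was highest. The values did not enter the choice of genes beyond that mean, which was taken over all sows.

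The samples were endometrium, the lining of the uterus, from 12 sows on Day 14 after insemination. Pregnant sows numbered 6, of which 3 were Yorkshire (sows 2, 4 and 12) and 3 were Landrace (sows 6, 8 and 10). The 6 non-pregnant sows received inactivated semen, and were also 3 Yorkshire (sows 1, 3 and 11) and 3 Landrace (sows 5, 7 and 9). Both horns had been rinsed before tissue without the muscle layer was taken from several levels of each horn, and 1 Affymetrix porcine array was hybridised per sow. In pregnant sows the attachment sites were visible as reddened zones, and the labels do not say whether conceptus cells stayed on the tissue. The age of the sows is not given.

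Mitochondria hold a small genome of their own, whose protein products are a few hydrophobic subunits of the respiratory chain. The mitochondrial ribosome translates only these, while its own proteins are encoded in the nucleus, made in the cytosol and imported. Import begins at the outer membrane, where receptors such as TOMM20, TOMM22 and TOMM70 deliver precursors to a pore, continues with small chaperones in the intermembrane space (TIMM8A, TIMM8B, TIMM9, TIMM10, TIMM10B and TIMM13), and ends at inner membrane complexes that insert carriers or pass precursors to the matrix motor. In the endometrium this machinery serves all cell types, with glandular and luminal epithelium being secretory and metabolically active around the time the conceptus attaches.

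All values are log2 expression values that had been made comparable across arrays, and a difference of -1 stands for a fall by a factor of 2 against the rest of the array. A change in total RNA per cell was not measurable. The median of all values was 6.29, and 66 of the 76 genes lay above it in every sow, 32 of them above the upper quartile of 7.74. None of the 76 lay below the lower quartile of 4.66 in all sows. Each array's highest correlation with another array, over probe sets, was 0.975 to 0.992. Non-pregnant sow 7 had the lowest of these correlations, the array nearest to pregnant sow 12 was that of non-pregnant sow 11, and the array nearest to pregnant sow 8 was that of non-pregnant sow 5. Sows 7 and 12 also stood apart in an earlier analysis of these data, so the main counts are given without them too.

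Pregnancy was the main contrast. In pregnant endometrium 17 of the 76 genes were lower and 0 were higher (limma, adjusted p under 0.05 over all 23999 probe sets, n = 6 against 6 with breed in the model). This is 22.4% of the genes, against 7.48% of all 6765 genes called lower and 4.58% called higher. Over all probe sets, named or not, 3.94% were called lower. With dim probe sets left out, 20 of these genes were called lower. The share of all genes kept was then also larger than 7.48%, with 614 called lower. The falls were moderate: the called differences ran from -0.26 for TIMM10B to -1.26 for MRPS36, and each pregnant sow lay below the non-pregnant mean for every one of the 17. The difference was negative for 70 of the 76 genes, with a median of -0.21, against a median of -0.03 over all genes. At an unadjusted p under 0.05, 38 of the 76 were lower and 0 higher. Over all 6765 genes, 1327 were lower and 788 higher at this level.

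The complete separation of groups gave a similar picture. For 12 of the 76 genes every pregnant sow lay below every non-pregnant sow, and for 0 every pregnant sow lay above. Over all genes, 3.0% were separated downward and 1.54% upward. The 12 were MRPL14, MRPL17, MRPL19, MRPL40, MRPL48, MRPL50, MRPL58, MRPS12, MRPS14, MRPS28, MRPS35 and TIMM13.

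The count of falls depended on single sows. Leaving out sow 2 (pregnant), 3 or 9 (non-pregnant) gave 10, leaving out sow 4, 5 or 6 gave 11, and the largest count with 1 sow left out was 20. Without both sows 7 and 12 it was 22. The share of all genes called lower moved as well, from 3.50% to 10.7% with 1 sow left out. That share was 11.6% without both sows 7 and 12. In the 12 fits with 1 sow left out, 8 genes were called every time: MRPL19, MRPL40, MRPL46, MRPL48, MRPS14, MRPS28, MRPS35 and TIMM13. A sign of RNA integrity is how far the 3' control probe set of GAPDH exceeds the 5' one. Pregnant sows had 1.36 ± 0.204 and the non-pregnant 1.20 ± 0.289 on the log2 scale (SD, n = 6 each, breeds pooled). Landrace sows 6, 8 and 10 (pregnant) had 1.25, 1.15 and 1.15, all above sows 5, 7 and 9 (non-pregnant) at 1.04, 0.87 and 0.97. Yorkshire groups overlapped, with 1.49, 1.59 and 1.55 in pregnant sows 2, 4 and 12. Non-pregnant Yorkshire sows 1, 3 and 11 had 1.31, 1.37 and 1.63. With this 3' excess as a covariate 0 of the 76 and 0 of all 6765 genes were called. The median difference of the 76 was then -0.16, and 23 were lower at an unadjusted p under 0.05. The array's second pair of GAPDH control probe sets gave 0.283 ± 0.131 in pregnant and 0.273 ± 0.0575 in non-pregnant sows. With this pair as a covariate, an alternative added after the data were seen, 17 of the 76 were called lower, 16 of them the same genes. Of all genes 7.58% were then lower.

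**Figure D1:**
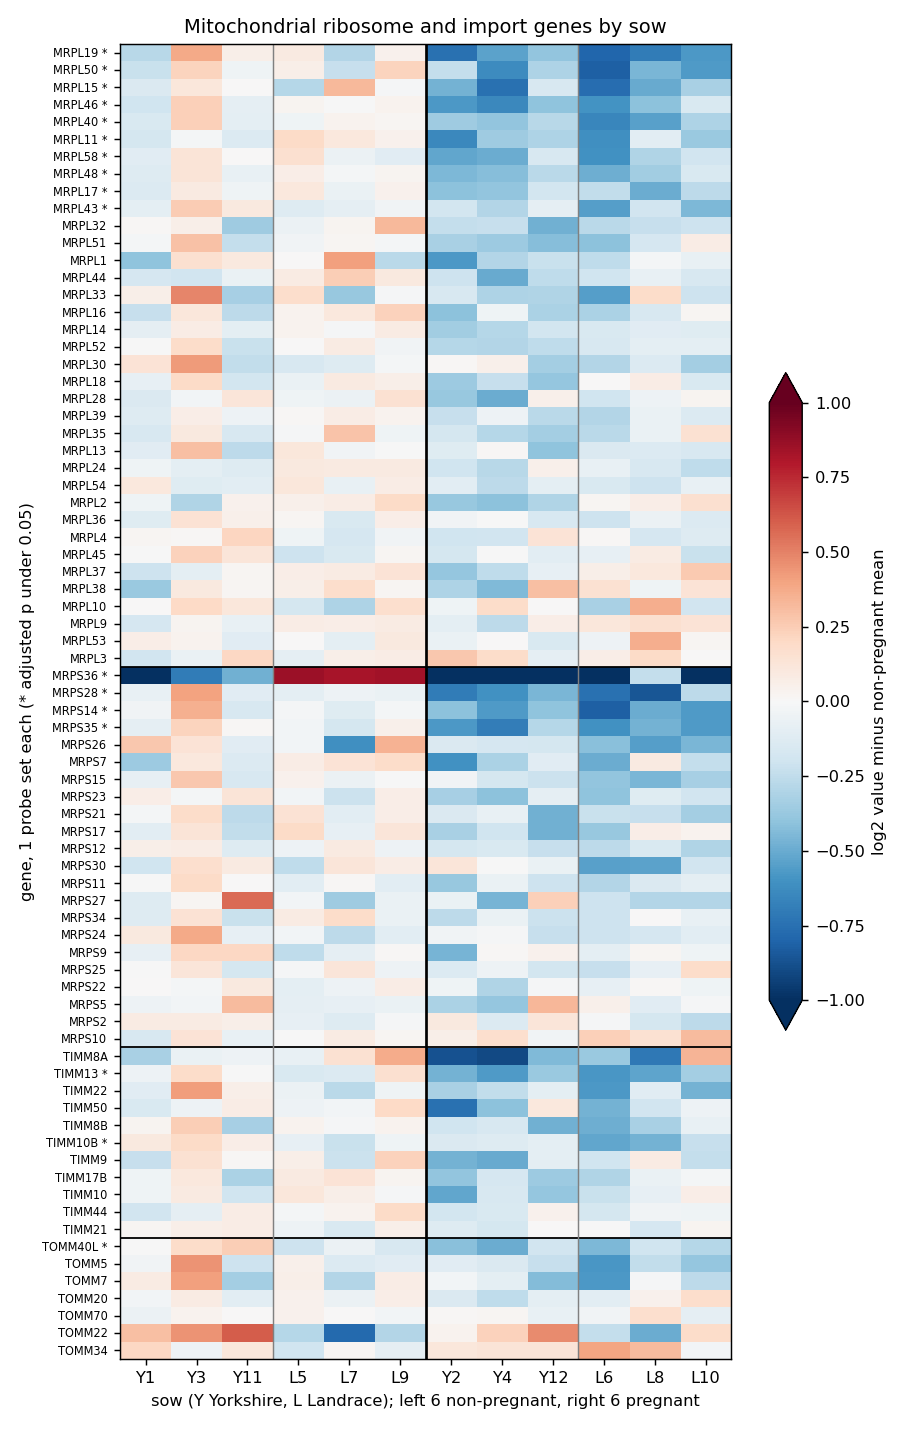
Log2 value of each of the 76 genes (rows, 1 probe set each, grouped as MRPL, MRPS, TIMM and TOMM and sorted by the pregnancy difference) in each of the 12 sows (columns), minus the mean of the 6 non-pregnant sows; the colour scale ends at -1 and 1, and asterisks mark the 17 called genes. Blue, meaning lower, fills most of the right side, and MRPS36 shows a further contrast between the 3 Yorkshire and the 3 Landrace non-pregnant sows.

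The map of deviations by sow showed the shift in each animal. Averaged over the 76 genes, a pregnant sow lay between -0.31 (sow 6) and -0.16 (sow 10) relative to the non-pregnant mean. The non-pregnant sows ran from -0.09 (sow 1) to 0.12 (sow 3), so the groups did not overlap. Pregnant Yorkshire sow 2 was at -0.29, sow 4 at -0.27 and sow 12 at -0.18, and pregnant Landrace sow 8 was at -0.16. Between 57 and 68 of the 76 genes were below the non-pregnant mean in each pregnant sow, against 16 to 57 in each non-pregnant sow. The extremes were shared unevenly: non-pregnant sow 3 held the highest value of 28 genes, and pregnant sows 6, 4 and 2 held the lowest value of 20, 19 and 14.

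The large subunit, the group with the most genes, had the most falls by count. Of 36 MRPL genes, 10 were lower and 26 were not called, with a median difference of -0.19. The medians of MRPS (-0.21) and TIMM genes (-0.26) were lower, and that of TOMM genes (-0.06) was not. At an unadjusted p under 0.05, 17 of 36 MRPL, 11 of 22 MRPS, 8 of 11 TIMM and 2 of 7 TOMM genes were lower. Of all 6765 genes, 1327 were lower at this level, and 7.48% were called lower. MRPL19, a protein of the large subunit, had log2 values of 6.60, 6.76 and 7.0 (lowest, median and highest) in pregnant sows and of 7.10, 7.45 and 7.77 in non-pregnant sows. The groups did not overlap, and the difference was -0.62 (SE 0.113, adjusted p = 0.00974), which put pregnant sows at 64.9% of the non-pregnant level. Both the largest MRPL difference and the smallest MRPL adjusted p belonged to this gene.

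MRPL40 ran from 8.01 to 8.38 with a median of 8.28 in pregnant sows and from 8.50 to 8.89 with a median of 8.65 in the others, a difference of -0.42 (adjusted p = 0.0136). MRPL46 had a pregnant range of 6.88 to 7.37 and a non-pregnant range of 7.32 to 7.76, a difference of -0.46 (adjusted p = 0.0146). The MRPL46 groups overlapped, because pregnant Landrace sow 10 at 7.37 lay just above non-pregnant Yorkshire sow 1 at 7.32. A second MRPL46 probe set fell as well (-0.34, adjusted p = 0.0146), and the last, with a mean of 3.94 over all sows, differed by 0.02 (adjusted p = 0.957). For MRPL48 the pregnant range was 7.03 to 7.37 and the non-pregnant range 7.39 to 7.65, a difference of -0.36 (adjusted p = 0.0154). These ranges were separated by a narrow gap, and sow 10 was again the highest of the pregnant animals.

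MRPL17 ran from 8.19 to 8.50 in pregnant sows and, with no overlap, from 8.55 to 8.80 in the others, a difference of -0.33 (adjusted p = 0.0187). MRPL50 lay between 6.33 and 6.91 in pregnant sows and between 6.91 and 7.37 in the others, a difference of -0.50 (adjusted p = 0.0230). The MRPL50 ranges all but met, with pregnant sow 2 and non-pregnant sow 7 both at 6.91 after rounding. The call for MRPL17 was lost without pregnant sow 2 (adjusted p = 0.0503). That for MRPL50 was lost in 5 of the 12 fits with a sow left out (adjusted p at most 0.0585). MRPL11, which belongs to the stalk base of the ribosome where factors bind, differed by -0.40 (adjusted p = 0.0242), with pregnant values of 7.58 to 8.12 and non-pregnant values of 8.05 to 8.42. Here pregnant sow 8 at 8.12 lay within the non-pregnant range.

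MRPL58 is a peptidyl-tRNA hydrolase that became part of the large subunit and releases stalled chains. Its values were 6.61 to 7.06 in pregnant and 7.10 to 7.37 in non-pregnant sows, a difference of -0.38 (adjusted p = 0.0313) without overlap. With 1 sow left out, the call for MRPL11 was lost in 5 of 12 fits (adjusted p at most 0.0621) and that for MRPL58 in 6 (at most 0.0778). The other called MRPL genes were MRPL15 (-0.50, adjusted p = 0.0338), called in 6 of the 12 fits with a sow left out, and MRPL43 (-0.29, adjusted p = 0.0464), called in 3. The second MRPL15 probe set differed by -0.04 (adjusted p = 0.875) and the second MRPL43 probe set by -0.25 (adjusted p = 0.0796). MRPL43 also lost its call with no breed term, with the intensity trend and with the second GAPDH covariate.

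Among MRPL genes that were not called, differences ran from -0.28 for MRPL32 to 0.10 for MRPL3. MRPL14 lay at 8.28 to 8.52 in pregnant and 8.54 to 8.72 in non-pregnant sows, separated but with an adjusted p of 0.0522. MRPL44 differed by -0.23 (adjusted p = 0.0600). Both became called when each array was centred on its median or when dim probe sets were left out. MRPL53 differed by 0.02 (95% interval -0.16 to 0.20), and MRPL24 by -0.15 (adjusted p = 0.235). MRPL3 and MRPL9, at 0.10 and 0.02, were the other MRPL genes with positive differences.

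**Figure D2:**
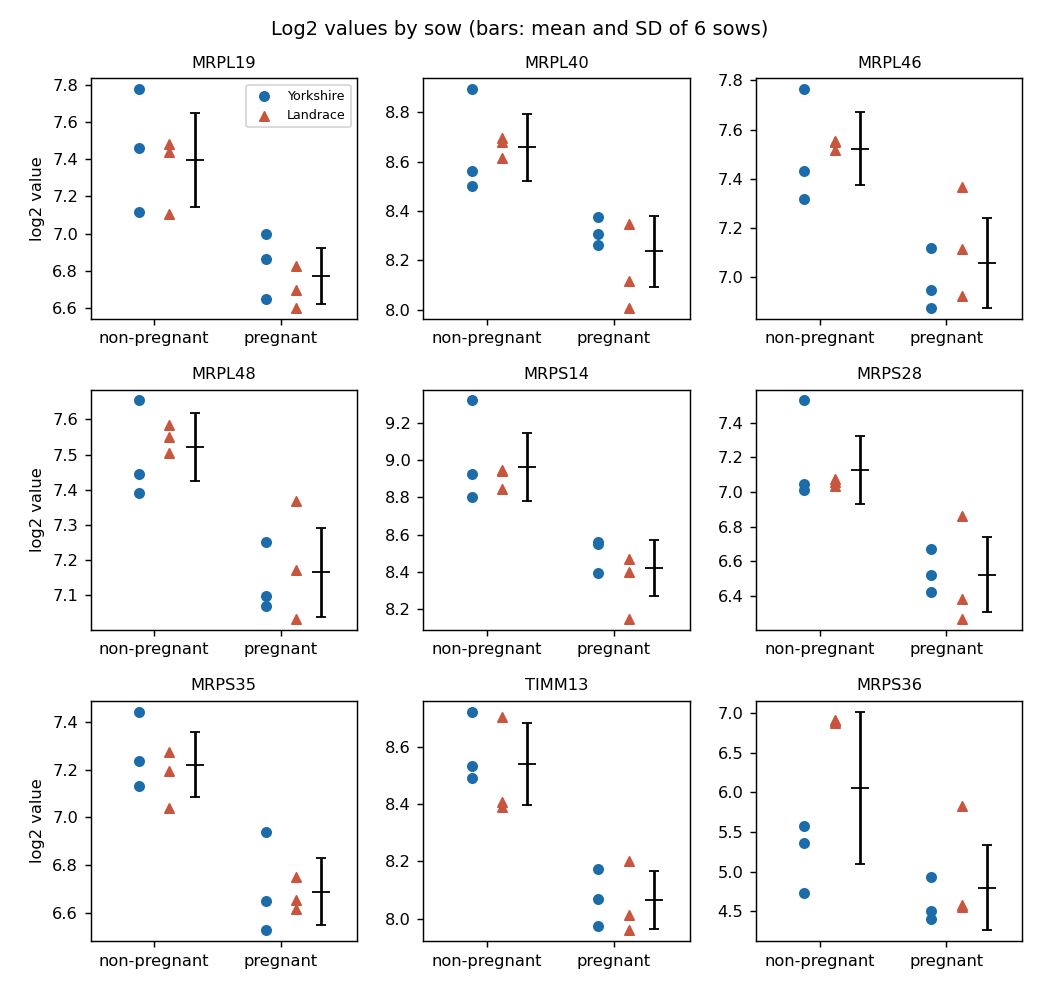
Log2 values of MRPL19, MRPL40, MRPL46, MRPL48, MRPS14, MRPS28, MRPS35, TIMM13 and MRPS36 in each sow (circles Yorkshire, triangles Landrace), with the mean and SD of the 6 sows of each group beside the points; each panel has its own vertical scale. The first 8 genes kept their calls whichever sow was left out, and only MRPL46 and MRPS36 have overlapping groups.

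In the small subunit 4 of 22 MRPS genes were lower, 18 were not called, and the median difference was -0.21. MRPS35 had the smallest p of all 76 genes. Its values were 6.53, 6.65 and 6.94 (lowest, median and highest) in pregnant sows and 7.04, 7.22 and 7.44 in non-pregnant sows, a difference of -0.53 (SE 0.085, adjusted p = 0.00627). Both breeds showed it to a like degree, at -0.57 in Yorkshire and -0.50 in Landrace, and pregnant sows were at 69.1% of the non-pregnant level.

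MRPS14, which lies in the head of the small subunit, had pregnant values of 8.15 to 8.56 with a median of 8.44 and non-pregnant values of 8.80 to 9.32 with a median of 8.94. The difference was -0.54 (adjusted p = 0.00733). MRPS28 had pregnant values of 6.27 to 6.86 and non-pregnant values of 7.01 to 7.53, a difference of -0.60 (adjusted p = 0.0119). In both genes non-pregnant sow 3 stood above the other non-pregnant sows, which lay between 8.80 and 8.95 for MRPS14 and between 7.01 and 7.07 for MRPS28. Without sow 3 both calls held, with differences of -0.48 and -0.52.

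MRPS36 differed from the rest. It is also known as KGD4, a subunit that ties the E3 enzyme into the 2-oxoglutarate dehydrogenase complex of the citric acid cycle, and its place in the ribosome has been questioned. In non-pregnant Landrace sows its values were 6.92, 6.88 and 6.90 (sows 5, 7 and 9), and in non-pregnant Yorkshire sows 4.72, 5.36 and 5.58 (sows 1, 3 and 11). In pregnant Landrace sows they were 4.55, 5.82 and 4.58 (sows 6, 8 and 10), and in pregnant Yorkshire sows 4.40, 4.51 and 4.93 (sows 2, 4 and 12). The 3 non-pregnant Landrace sows were thus above all 9 other animals, and pregnant sow 8 was the highest of the pregnant ones. The pooled difference was -1.26 (95% interval -1.88 to -0.64, adjusted p = 0.0215). Pregnant sows 2, 4, 6 and 10 lay below the lower quartile of all values (4.66), and differences among such low values are compressed. The call was lost without non-pregnant sow 5 or 9 (adjusted p up to 0.0543), and with no breed term.

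MRPS12, a core protein of the decoding centre, was separated between groups, with 8.20 to 8.34 in pregnant and 8.37 to 8.59 in non-pregnant sows. Its difference of -0.21 missed the threshold (adjusted p = 0.0525). Its other probe sets were both called lower, at -0.44 (adjusted p = 0.00758) and -0.38 (adjusted p = 0.0242), so the probe set with the highest mean gave the smallest of the 3 differences. With the probe sets of a gene averaged, MRPS12 differed by -0.35 and was called. Of the 23 further probe sets of the 76 genes, 18 had the sign of the one standing for the gene, 3 were called lower (1 of MRPL46 and both of MRPS12) and 0 higher.

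None of the remaining MRPS genes was called. By p, MRPS15 (-0.27, adjusted p = 0.0745) and MRPS23 (-0.26, adjusted p = 0.0788) came next after MRPS12. By size, MRPS26 (-0.32, adjusted p = 0.167) and MRPS7 (-0.28, adjusted p = 0.168) had the largest differences among them. MRPS21 differed by -0.25 (adjusted p = 0.131). MRPS10 was the only MRPS gene with a positive difference (0.15, adjusted p = 0.222), with pregnant values of 8.68 to 9.04 and non-pregnant values of 8.56 to 8.85.

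**Figure D3:**
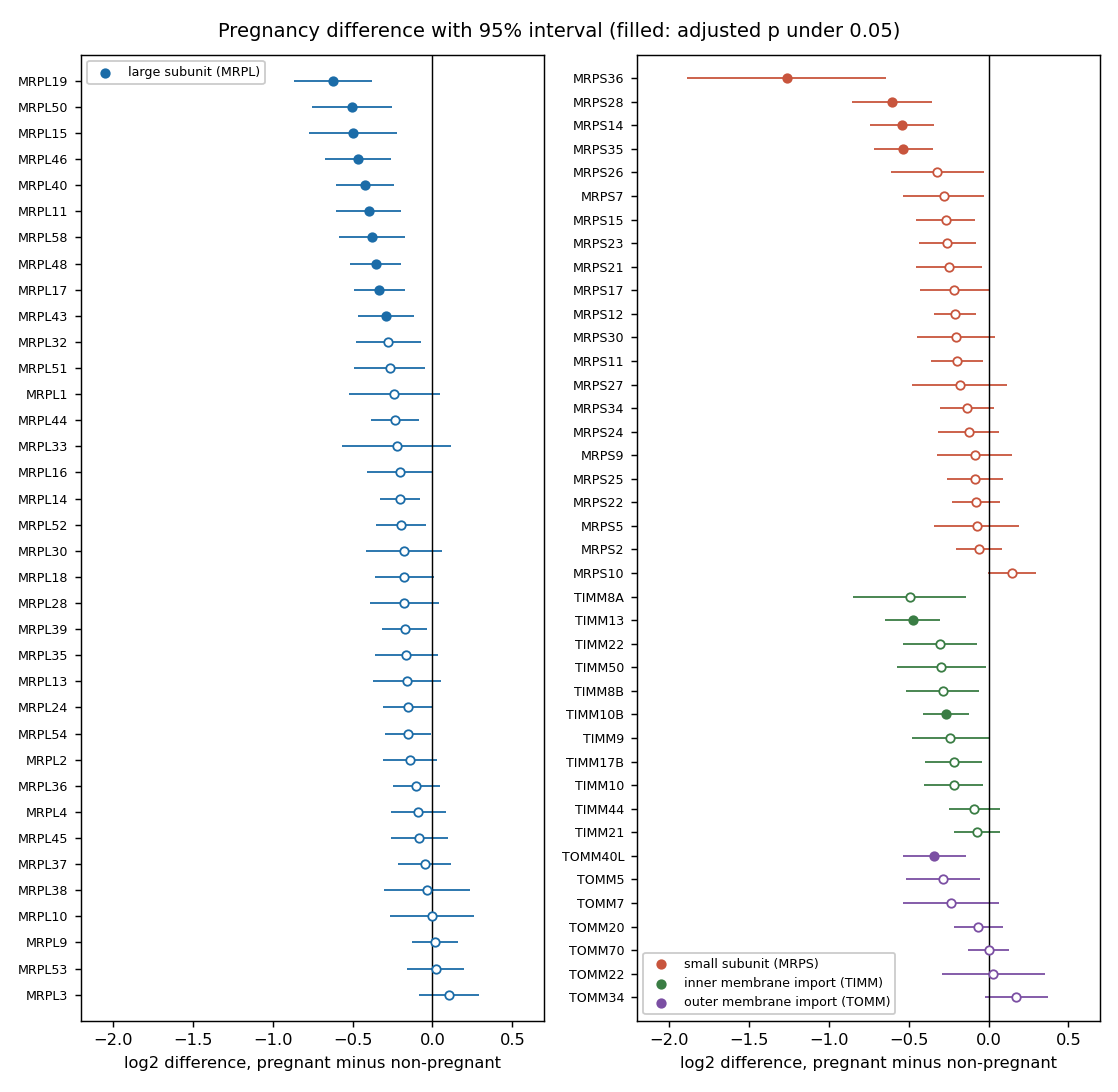
Log2 difference between pregnant and non-pregnant sows (points) with its 95% interval from the limma fit (lines) for each of the 76 genes, sorted within the 4 groups; filled points had an adjusted p under 0.05. Of the 76 points 70 lie left of 0, all 11 TIMM genes among them, and MRPS36 has both the largest difference and the widest interval.

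For inner membrane import, all 11 TIMM genes had negative differences, with a median of -0.26, and 2 were called. TIMM13, which forms a chaperone complex with TIMM8A that escorts hydrophobic precursors between the membranes, ran from 7.96 to 8.20 with a median of 8.04 in pregnant sows. In the others it ran from 8.39 to 8.72 with a median of 8.51. The groups were well apart, and the difference was -0.48 (SE 0.079, adjusted p = 0.00695), at 71.9% of the non-pregnant level.

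TIMM8A, the partner of TIMM13, differed by a like amount (-0.49) but was not called (adjusted p = 0.0863). Its pregnant values ran from 6.42 to 7.67, the widest pregnant spread of the TIMM genes, with sow 10 at 7.67 inside the non-pregnant range of 7.0 to 7.69. TIMM10B, a small chaperone bound to the carrier insertion complex, had pregnant values of 7.31 to 7.74 and non-pregnant values of 7.61 to 8.03, a difference of -0.26 (adjusted p = 0.0314). The call was lost in 7 of the 12 fits with a sow left out (adjusted p at most 0.0778) and with the gene's probe sets averaged (-0.12), since a dim second probe set, with a mean of 4.55, differed by 0.02.

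The remaining small chaperones were not called. TIMM8B, a close relative of TIMM8A, differed by -0.29 (adjusted p = 0.118), TIMM9 by -0.24 (adjusted p = 0.218) and TIMM10, its partner in the carrier pathway, by -0.22 (adjusted p = 0.140). Of the channel and receptor parts, TIMM50, the receptor that takes over precursors from the outer membrane, differed by -0.30 (95% interval -0.58 to -0.02, adjusted p = 0.190). TIMM22, the carrier insertion channel, differed by -0.30 (adjusted p = 0.102). TIMM44, which anchors the matrix motor at the channel, differed by -0.09 (adjusted p = 0.524). None of these 3 was called.

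For outer membrane import, 1 of 7 TOMM genes was lower, 5 had negative differences, and the median was -0.06. The called gene was TOMM40L, a paralogue of the pore protein TOMM40, with pregnant values of 5.82 to 6.12 and non-pregnant values of 6.11 to 6.57, a difference of -0.34 (adjusted p = 0.0399). The ranges met at pregnant sow 12 (6.12) and non-pregnant sow 5 (6.11), and the call was lost in 9 of the 12 fits with a sow left out (adjusted p at most 0.0949). TOMM5, a small subunit of the pore complex, differed by -0.28 (adjusted p = 0.124).

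The receptors showed smaller differences. TOMM20, which binds cleavable presequences, differed by -0.06 (95% interval -0.22 to 0.09), TOMM22, the central receptor, by 0.03 (-0.29 to 0.35) and TOMM70, which takes carrier precursors from cytosolic chaperones, by 0.00 (-0.13 to 0.13). Falls as large as that of TIMM13 lay outside all 3 intervals. TOMM34, a cytosolic co-chaperone, had the largest positive difference of the 76 genes (0.17, adjusted p = 0.280). The pore protein TOMM40 itself and the inner channel proteins TIMM23 and TIMM17A were not analysed here.

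Breed divided these genes less than pregnancy did. In Landrace compared with Yorkshire sows, 2 of 76 genes were lower and 1 was higher (limma, adjusted p under 0.05, n = 6 against 6), against 3.24% of all genes lower and 2.03% higher. The median breed difference was 0.02 for the 76 genes and 0.00 for all genes. TOMM22 had the clearest difference, at -0.67 (SE 0.147, adjusted p = 0.0232). Its Landrace values were 8.21, 7.72 and 8.21 in non-pregnant sows 5, 7 and 9 and 8.27, 8.0 and 8.68 in pregnant sows 6, 8 and 10. Its Yorkshire values were 8.80, 8.95 and 9.11 in non-pregnant sows 1, 3 and 11 and 8.53, 8.73 and 8.97 in pregnant sows 2, 4 and 12. Only pregnant Landrace sow 10 reached the Yorkshire range.

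TIMM10B, lower in pregnancy, was also lower in Landrace sows (-0.26, adjusted p = 0.0411). MRPL2, a core protein at the catalytic centre of the large subunit, was higher in Landrace sows by 0.33 (adjusted p = 0.0309), with Landrace values of 8.30 to 8.47 and Yorkshire values of 7.87 to 8.32. A second MRPL2 probe set differed by 0.40 (adjusted p = 0.0290). MRPL37 was the only gene of the 76 for which every Landrace sow lay above every Yorkshire sow, against 79 of all 6765 genes. Its difference of 0.28 missed the threshold (adjusted p = 0.0504).

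The breed calls were sensitive. The 3' excess of GAPDH was 1.49 ± 0.126 in Yorkshire sows and 1.07 ± 0.139 in Landrace sows (SD, n = 6 each), and with it as a covariate none of the 3 genes was called, TOMM22 moving to -0.03 and MRPL2 to 0.54. The second GAPDH pair gave 0.325 ± 0.0816 in Yorkshire and 0.231 ± 0.0918 in Landrace sows. With it as a covariate none of the 3 was called either, TOMM22 at -0.55 (adjusted p = 0.117), MRPL2 at 0.34 (adjusted p = 0.081) and TIMM10B at -0.20 (adjusted p = 0.181). Without both sows 7 and 12 none was called either. Leaving out 1 sow at a time, TOMM22 was lost without sow 3, 11 or 12, MRPL2 in 8 of the 12 fits and TIMM10B in 11, with adjusted p at most 0.0550, 0.0745 and 0.0860.

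The pregnancy difference was also taken within each breed, with 3 sows against 3. In Yorkshire sows 73 of the 76 differences were negative, with a median of -0.23, but 0 of the 76 and 0% of all genes were called (limma, 4-group fit). At an unadjusted p under 0.05, 26 were lower and 0 higher. Of all 6765 genes, 882 were lower and 587 higher at this level. Without pregnant sow 12, 3 of the 76 were called lower in Yorkshire, against 4.52% of all genes. In Landrace sows 62 differences were negative, with a median of -0.17, and 1 gene was called lower against 0.828% of all genes. At an unadjusted p under 0.05, 22 were lower and 1, TOMM34, was higher. All-gene counts at this level were 834 lower and 568 higher. The gene called was MRPS36 (-1.92, SE 0.318, adjusted p = 0.0214). The Landrace count was 0 without sow 5, 6, 9 or 10. It was 2 without sow 3, 8 or 12, where 0.636%, 1.73% and 1.94% of all genes were called lower.

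**Figure D4:**
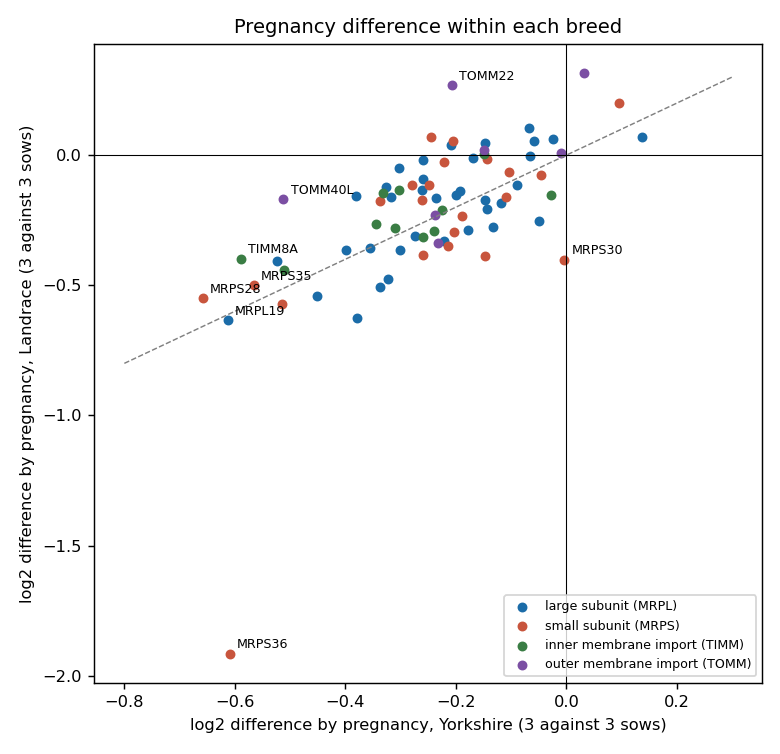
Log2 pregnancy difference in Yorkshire sows (horizontal) against that in Landrace sows (vertical) for each of the 76 genes, coloured by group, each from 3 pregnant and 3 non-pregnant sows; the dashed line marks equal differences. Most points lie below 0 on both axes, and MRPS36 lies far below the line at -0.61 and -1.92.

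A test of whether pregnancy acted differently in the breeds called 0 of the 76 genes, as it did 0% of all 6765 (limma interaction, adjusted p under 0.05). Against 336 of all 6765 genes, 1 of the 76 passed at an unadjusted p under 0.05. That gene was MRPS36, whose difference was -0.61 in Yorkshire and -1.92 in Landrace, an interaction of -1.31 (95% interval -2.30 to -0.32, adjusted p = 1.00). Among non-pregnant sows MRPS36 was higher in Landrace by 1.68 (adjusted p = 0.0349), a contrast in which 0.429% of all genes were called higher. In pregnant sows the breeds differed by 0.37 (95% interval -0.33 to 1.07). Next by p came TOMM40L, at -0.51 in Yorkshire and -0.17 in Landrace, and MRPS30, at 0.00 and -0.40, both with an adjusted p of 1.00.

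Other mitochondrial genes were read from lists of known function, several of them short. The shares to set beside their counts are those of all genes, 7.48% called lower and 4.58% higher. Of 5 measured mitochondrial ribosomal proteins and assembly factors under other symbols, all had negative differences and 1 was called, MALSU1, an assembly factor of the large subunit (-0.30, adjusted p = 0.0321). None of 11 translation and ribosome assembly factors was called (at an unadjusted p under 0.05, 4 were lower and 1 higher), with a median of -0.04, and the elongation factors GFM1 (-0.25, adjusted p = 0.0790) and TUFM (-0.20, adjusted p = 0.132) were among them. None of 6 mitochondrial tRNA synthetases was called either, with 2 lower at an unadjusted p under 0.05 and a median of -0.11. Of 3 genes for mitochondrial DNA maintenance and transcription, SSBP1, the single-strand binding protein, was lower (-0.31, adjusted p = 0.0265), while TFAM differed by -0.02.

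The all-gene shares of 7.48% lower and 4.58% higher apply to the next lists too. Downstream of the import channels, 3 of 16 genes for the import motor, processing and folding were lower and 0 higher, with a median of -0.13. These were HSPE1, the co-chaperonin of the matrix (-0.60, adjusted p = 0.0137), HSPA9, the Hsp70 of the import motor (-0.46, adjusted p = 0.0148), and CHCHD4, the oxidoreductase that folds small proteins such as the TIMM chaperones between the membranes (-0.40, adjusted p = 0.0394). HSPD1, the partner of HSPE1, differed by -0.22 (adjusted p = 0.284). Of 8 outer membrane channels and carriers, 2 were lower (VDAC1, -0.39, and VDAC2, -0.29) and the median was -0.28. Of 4 regulators of mitochondrial genes, PPARGC1A, a coactivator of mitochondrial biogenesis, was higher in pregnant sows (0.59, adjusted p = 0.0476). The other 3 had negative differences and were not called, among them PPRC1 (-0.42, adjusted p = 0.135) and MYC (-0.47, adjusted p = 0.267), so the median of the 4 was -0.21.

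Set beside these were both groups of genes whose products work with the mitochondrial ribosome or resemble it. Of 55 nuclear-encoded subunits of the respiratory chain and ATP synthase, 31 were lower and 0 higher, with a median of -0.34, so 56.4% of them were called lower. Of 63 cytosolic ribosomal proteins and paralogues, 2 were lower (RPL26L1 and RPS27L) and 0 higher, with a median of -0.04. Both lists were taken by symbol, and assembly factors, ATP5S, kinases and RPS19BP1 were removed by name after their values had been seen. With them the counts lower were 31 of 60 (median -0.31) and 2 of 67 (median -0.04). The median of the cytosolic ribosomal list was near the all-gene median of -0.03, and that of the respiratory chain and ATP synthase list lay lower than the mitochondrial ribosome and import genes. No test of the difference between these lists was made.

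**Figure D5:**
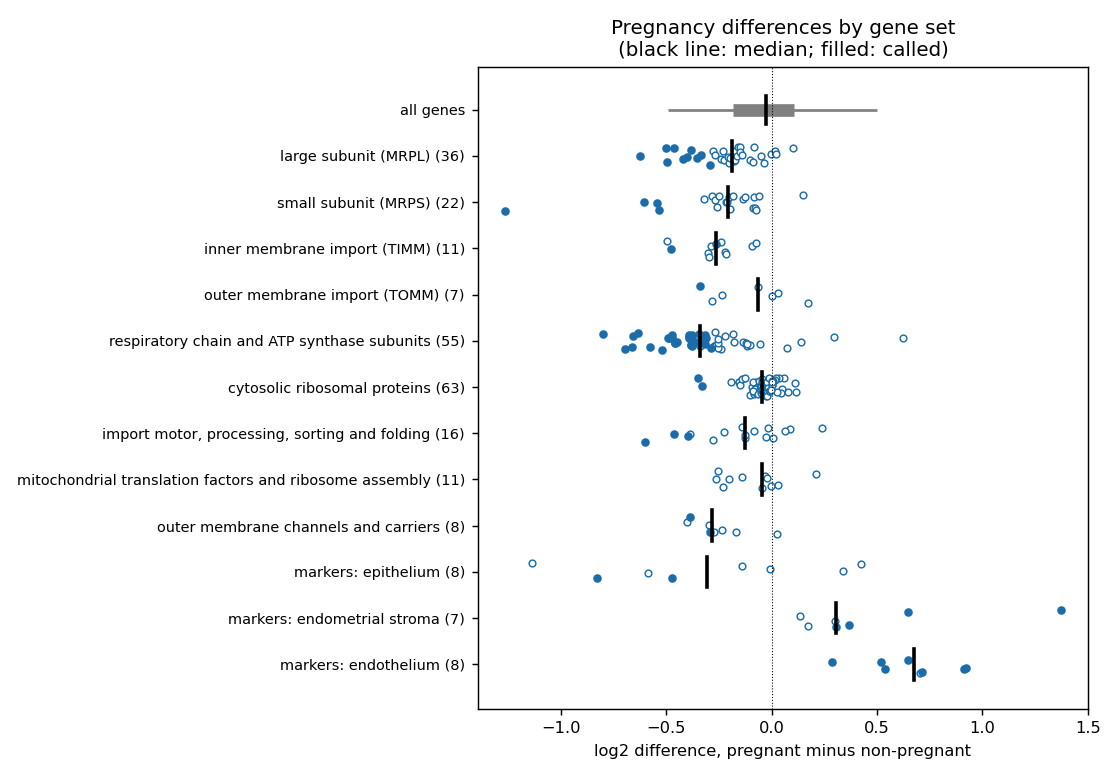
Log2 pregnancy differences of single genes (points, filled where the adjusted p was under 0.05) in the 4 groups, other mitochondrial lists, cytosolic ribosomal proteins and cell type markers, with the number of genes in brackets; black lines are medians, and the grey bar and line for all genes span the middle 50% and 90%. Medians run from -0.34 for respiratory chain and ATP synthase subunits and -0.04 for cytosolic ribosomal proteins to 0.68 for endothelial markers.

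Markers of some cell types in the tissue moved with pregnancy as well, beside 7.48% of all genes called lower and 4.58% higher. In whole tissue, fewer cells of a type and less RNA per cell cannot be told apart. Of 8 epithelial markers, 2 were lower in pregnant sows (KRT8, -0.83, and CLDN7, -0.47) and 0 higher. Differences were negative for 6, while those of CLDN4 (0.42, adjusted p = 0.315) and CDH1 (0.34, adjusted p = 0.0876) were positive. The mean level over the list was 9.83 to 10.65 in pregnant and 10.28 to 10.63 in non-pregnant sows. Of 7 stromal markers 4 were higher, among them VIM (0.65) and THY1 (1.37), with mean levels of 10.10 to 10.83 and 9.74 to 10.23. Of 8 endothelial markers 7 were higher, with mean levels of 7.13 to 7.74 in pregnant and 6.45 to 6.98 in non-pregnant sows, which did not overlap. Of 5 smooth muscle markers 1 was higher, and of 7 leukocyte and 2 erythroid markers none was called (at an unadjusted p under 0.05, 0 and 1 were lower). Of 7 trophoblast markers 1 was lower (CYP19A3, -0.33), with mean levels of 5.08 to 7.22 in pregnant sows and 4.88 to 5.5 in the others, and IFNG, which the pig conceptus secretes, differed by 2.25 (adjusted p = 0.280). The part of these shifts in the falls of mitochondrial ribosome and import genes was not tested.

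The 76 genes also varied together among sows of 1 group. After the mean of each of the 4 groups was removed, the median correlation between pairs of the genes over the 12 sows was 0.24, and 69.3% of pairs were positive, against a median of 0.01 between pairs of all genes. All pairs share the arrays and the sows, so these values describe this set of animals. The median SD within a group was 0.148 for the 76 genes and 0.176 for all genes. MRPS36 had the largest within-group SD, at 0.45, followed by TIMM8A at 0.33 and MRPL33 at 0.31.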

How the data were processed

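Endometrium of 12 sows was measured on 1 Affymetrix porcine array each. Each deposited value is the log2 expression of 1 probe set, which the authors made with RMA, per the submitters' processing notes, which also name affy and limma and give no versions. RMA corrects the background, makes the distributions of the arrays alike and combines probes, so differences are relative to the rest of the array and low values are compressed. The number of arrays limits the precision, since the values carry no counts.

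The 124 control probe sets were left out, leaving 23999 for lmFit and eBayes of limma 3.58.1 under R 4.3.3 (two-sided, Benjamini-Hochberg over all of them, adjusted p under 0.05). Pregnancy and breed came from an additive fit with 9 residual degrees of freedom, within-breed differences and the interaction from a fit of 4 groups with 8. Differences are pregnant minus non-pregnant, Landrace minus Yorkshire, and for the interaction Landrace minus Yorkshire effect. The procedure was tested on simulated data. Each sow is 1 replicate, and no pairing is given in the labels.

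Symbols came from the platform annotation, with 10069 probe sets having 1 symbol, 198 several and 13732 none. MRPL22 and MRPL55 stood only in the 6 probe sets that name a member among several symbols, and were not analysed here. Of the 76 genes 75 matched a gene identifier in RefSeq (Sscrofa11.1), and 0 symbols changed. No promoter or protein sequence was used here. Members and lists were chosen with earlier results of these data known. Named were, by smallest p, up to 8 called genes each of MRPL and MRPS and up to 5 each of TIMM and TOMM (at least 2 each), the called breed genes, the 3 smallest interaction p values, the genes with the highest and lowest mean of each group, and a fixed set of receptors, chaperones and MRPS12. Other genes named were chosen after their values were seen. Alternatives were cyclic loess, centring on array medians, leaving out probe sets above the overall median on fewer than 3 arrays, array weights, a robust prior with an intensity trend, the GAPDH 3' minus 5' difference as a covariate (and, added after the data were seen, that of the second GAPDH pair), averaged probe sets, an adjusted p under 0.01, no breed term, leaving out sows 7 and 12, and leaving out each sow.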

Additional observations from a re-analysis of the deposited data

Results flagged for a closer look

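In 8 of 152 groups of 6 sows (76 genes in pregnant and in non-pregnant sows), 1 sow lay farther from its nearest neighbour than Dixon's 95% critical value for the group's range allows. That is 5.26% of the groups, and chance alone gives about 1 in 20. Among pregnant sows, sow 12 was low for MRPL32 (6.69, the others 6.90 to 6.96), sow 4 was low for MRPS22 (7.03, the others 7.24 to 7.34), sow 2 was low for MRPS9 (6.51, the others 6.87 to 7.01), and sow 8 was high for MRPL53 (9.53, the others 9.01 to 9.18). Among non-pregnant sows, sow 1 was low for MRPL38 (7.42, the others 7.81 to 7.96) and sow 11 was high for MRPS5 (7.61, the others 7.20 to 7.27). Sow 3 was high for MRPS14 (9.32) and MRPS28 (7.53), both of which stayed called without it.

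MRPS9, a small subunit protein, had pregnancy differences of opposite sign in the breeds. Over the 76 genes, 3 differences were positive in Yorkshire and 14 in Landrace. Each pregnant Yorkshire sow lay below and each pregnant Landrace sow above the mean of the non-pregnant sows of its breed, with differences of -0.25 in Yorkshire and 0.07 in Landrace. The difference between the breeds, 0.32, did not pass the interaction test (limma, unadjusted p = 0.145, adjusted p = 1.00, 3 sows in each of the 4 groups).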

How the results depend on the processing

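The median pregnancy difference of the 76 genes stayed negative under every alternative run, from -0.23 to -0.16, and none of the 76 was called higher in pregnant sows or for the interaction under any of them. The 17 falls became 27 with array weights (13.8% of all genes then lower) and 4 at an adjusted p under 0.01 (1.08%). They became 0 with the first GAPDH covariate, against 17 with the second, chosen after seeing the data (7.58%). With 1 sow left out they were 10 to 20 (3.50% to 10.7%). All 17 were still called with cyclic loess, array centring, array weights and dim probe sets left out. The count was 20 with array centring, where 599 of all genes were lower, against 506 in the main fit. It was also 20 with dim probe sets left out, where 614 of the genes kept were lower. Fewer genes were kept there, so the all-gene share was larger than the 7.48% of the main fit. In Landrace, the 2 lower genes became 1 with cyclic loess, array centring, the intensity trend or averaged probe sets, and 0 with either GAPDH covariate, at 0.01 or without sows 7 and 12. The 1 higher gene became 4 with cyclic loess (2.41% of all genes) and 2 with array centring (2.34%). It became 3 with dim probe sets left out (3.25%) or array weights (2.62%). The count was 0 with the first covariate, at 0.01 or without sows 7 and 12. With the second covariate it stayed at 1 (1.05% of all genes), but the gene was not MRPL2. Leaving out 1 sow gave 0 to 2 lower and 0 to 2 higher. The within-Yorkshire falls, 0 in the report, were 22 with array weights (11.9% of all genes) and 6 without sows 7 and 12 (6.31%). With 1 sow left out they were 0 to 3 (at most 4.52%). The 1 within-Landrace fall became 8 with array weights (4.02% of all genes). It became 2 with averaged probe sets (0.961%) or without sows 7 and 12 (2.22%). The count was 0 with the first covariate or at 0.01, and 0 to 2 with 1 sow left out. The causes were not tested, beyond the stricter threshold and fewer sows that some alternatives impose. The first covariate left 0 calls among all 6765 genes, for pregnancy and for breed. No paired analysis was possible because the groups compared share no replicate numbers.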

Other observations

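In the gene order of RefSeq (Sscrofa11.1), 13 measured genes outside the 76 neighbour the 17 called genes, and 4 of them were lower in pregnant sows. These were CENPH, a centromere protein beside MRPS36 (-0.81, adjusted p = 0.0410), CACYBP beside MRPS14 (-0.39, adjusted p = 0.0103), ATP5H, a subunit of the ATP synthase beside MRPL58 (-0.38, adjusted p = 0.0122), and ARFIP2 beside TIMM10B (-0.24, adjusted p = 0.0404), all by limma. Of 41 such neighbours of the other genes, 4 were lower, and 0 of either set were higher. Over all 6765 genes, 7.48% were lower and 4.58% higher. The neighbours were counted after the falls were known, and no test of the difference was made.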
